A study of Mus musculus with 4 samples.

Results

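A set of 9 genes of retinoic acid (RA) synthesis, breakdown and response was followed across the cells of mouse testicular organoids (TOs) and mouse testes. They were Stra6 (uptake of vitamin A), Aldh1a1 and Aldh1a2 (synthesis), Cyp26a1 and Cyp26b1 (breakdown), Crabp1 and Crabp2 (binding in the cytoplasm), Rarg (a receptor) and Stra8 (a response gene of germ cells). All 9 were matched by symbol among the 32285 genes of the count matrices, and their unique molecular identifiers (UMIs) were summed per library and per marker-defined cell type. The question was which cells of each tissue hold the transcripts for making and removing RA, given the Stra8 level of TO spermatogonia.

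The scRNA-seq series holds 2 libraries of TOs and 2 of testes, both given as 28 days old in the series design, while the dissociation protocol of the labels names day 21 TOs. In the study the days of TOs are days of culture, and those of testes are the age of the mice. The groups are therefore not matched in the age of their cells. TOs were reconstituted from single-cell suspensions of whole testes of ICR mice at postnatal day 6, embedded for part of the culture in a commercial extracellular matrix and grown on culture inserts. They therefore hold only cells that the 6-day-old testis supplied. The labels give no treatment of the testes and no transgene or mutation in either group. Cells were unsorted. The culture medium had serum replacement with hormones and antioxidants, and whether it supplied a retinoid was not settled from the sources used here. The libraries are treated as replicates. The study's methods take the TOs from 2 separate batches and name the testis libraries biological replicates, without saying which batch or which animals each library holds, and p-values measure the spread between these libraries.

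RA is made from vitamin A (retinol) in steps. STRA6 carries retinol into cells, retinol dehydrogenases turn it into retinal, retinal dehydrogenases (the ALDH1A enzymes) oxidise retinal to RA, and CYP26 enzymes hydroxylate RA and so clear it. RA binds nuclear receptors of the RAR and RXR families, which sit on paired copies of a short DNA motif near target genes. In the testis, pulses of RA along the seminiferous tubule drive spermatogonia to differentiate and later to enter meiosis, and Stra8 is the classical germ cell gene that RA switches on at both steps. Sertoli cells, Leydig cells, spermatocytes and peritubular myoid cells are all known to take part in RA supply or removal.

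After filters, 9802 and 8713 TO cells and 9867 and 9516 testis cells were kept, with mean depths of 6654 and 8257 UMIs per cell in TOs and 4554 and 4916 in testes. Values below are given in the order TO replicates 1 and 2, then testis replicates 1 and 2, in CPM (UMIs of a gene per 1000000 UMIs of the summed cells of a type). Types carry the suffix -like because clusters were named from marker genes. Between 30 and 55 barcodes were shared by any pair of libraries, at most 0.44% of the smaller one. Leydig-like cells numbered 1715 and 1574 in TOs and 569 and 342 in testes, Sertoli-like cells 1279, 586, 316 and 108, and peritubular myoid-like cells 2250, 1500, 594 and 353. Differentiating spermatogonia-like cells numbered 415, 310, 443 and 163, and undifferentiated ones 198, 77, 164 and 57.

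Some TO groups went against their names. Only 57 and 10 TO cells fell in pachytene-like clusters and 23 and 33 in round spermatid-like clusters, against 1065, 755, 3054 and 2292 in testes. The summed level of the 5 pachytene markers in the pachytene-like cells was 837 and 896 CPM in TOs and 2857 and 3762 CPM in testes, while that of the 7 leptotene and zygotene markers was 1900 and 4113 against 505 and 914 CPM. In the round spermatid-like cells the 7 round spermatid markers summed to 580 and 1242 CPM in TOs and 3281 and 3182 CPM in testes, and the leptotene and zygotene markers to 645 and 799 against 311 and 464 CPM. Results in these 2 groups are therefore given apart, with and without them in the counts. TO cells of the cluster with endothelial markers had no Pecam1 UMI and held Pax8 and Cldn11, which testis cells of that cluster lacked but for 1 Cldn11 UMI, while Wt1 was found in both. That cluster, the diplotene-like cells, which fell short of their markers in TOs, and the elongating spermatids, with no TO cells, entered no test.

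The classical binding motif of RA receptors is a direct repeat of the hexamer AGGTCA or a close variant, and the promoters of 3 genes show what such a motif looks like. The hexamer AGGTCA itself and its close variant AGTTCA were searched here, together with the related hexamer GGGTCA and the fourth form, GGTTCA, on both strands of 32851 RefSeq promoter windows (GRCm38.p6, 250 bases before to 50 after the annotated start). A repeat with 5 bases between the hexamers stood in 0.0974% of windows (32 windows of 31 genes), one with 2 bases between in 0.268%, and a lone hexamer, which every repeat also contains, in 43.7%. Windows of 8 of the 9 genes (13 windows) were matched. Below, capitals mark the hexamer or the whole repeat. Of exact matches to the searched forms, the Stra8 window held lone hexamers only, 194 and 38 bases before the RefSeq start. The first stretch below also has gggtga, outside the searched forms, 2 bases before its hexamer. In GENCODE the Stra8 gene begins at 34920163, before this window, so both hexamers lie inside the gene as annotated there. Cyp26a1 held a repeat with 5 bases between, on the other strand, 32 to 16 bases before the start. The same kind of repeat in Rarb, which encodes a receptor of the pathway list and was added for comparison, lay 53 to 37 bases before the start.
Stra8 (chr6:34920742-34920771, + strand): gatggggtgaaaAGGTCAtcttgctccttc
Stra8 (chr6:34920898-34920927, + strand): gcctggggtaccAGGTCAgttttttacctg
Cyp26a1 (chr19:37697708-37697797, + strand): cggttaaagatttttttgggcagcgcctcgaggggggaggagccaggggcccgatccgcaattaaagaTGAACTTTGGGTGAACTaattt
Rarb (chr14:16575506-16575535, − strand): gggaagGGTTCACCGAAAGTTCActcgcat
A match is a description of these letters in these windows and not a measured binding site.

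In spermatogonia-like cells, Stra8 was 3.59-fold higher in TOs. Stra8 (chr6:34920163-34939344, + strand, GRCm38) stood at 615 and 742 CPM in the TO libraries and at 183 and 185 CPM in the testis libraries over undifferentiated and differentiating cells together. The TO values did not overlap the testis values, with a log2 fold change of 1.84 (SE 0.21, edgeR adjusted p = 4.91e-05). This value restates the observation that the choice of genes started from and is no independent support for it. Of all genes tested in these cells, 0.867% were called higher in TOs and 12.2% lower, where a gene is called at an adjusted p under 0.01 with a log2 fold change beyond 1 in either direction. The call was lost when each cell was typed by its own marker score without clusters, at a log2 fold change of 1.00 and an adjusted p of 0.0296. Clusters shared by all libraries held only the undifferentiated cells of this group, where Stra8 was not called.

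By stage, Stra8 was called higher in TOs in differentiating spermatogonia-like cells and in the spermatocytes that follow them, and not in undifferentiated cells. Undifferentiated spermatogonia-like cells had Stra8 at 176 and 190 CPM in TOs and at 107.5 and 91.5 CPM in testes, a log2 difference of 0.73 (SE 0.22) that was not called at an adjusted p of 0.0287. In differentiating spermatogonia-like cells the values were 862 and 919 CPM against 218 and 224 CPM, and Stra8 was 4.00-fold higher in TOs (log2 2.00, SE 0.19, adjusted p = 5.88e-05). Leptotene and zygotene-like spermatocytes, the stage of meiotic entry, held 1020 and 997 CPM against 559 and 401 CPM, 2.09-fold higher in TOs (log2 1.06, SE 0.27, adjusted p = 0.00977). This last call lay at the threshold and was lost in 7 alternatives, among them leaving out TO replicate 1 (adjusted p = 0.0303), TO replicate 2 (0.0536) or testis replicate 2 (0.0784).

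The difference between the stages was tested itself. Stra8 differed more between TOs and testes in differentiating than in undifferentiated cells, by 1.30 on the log2 scale (SE 0.19, edgeR adjusted p = 9.90e-09), and of the 6 members tested no other was called in the same fit. In counts simulated with log2 changes of 2, this test recovered 23% of the changed genes, so a missing call says little here. Over all 12678 genes, 1.19% were called for such a difference, 83 more positive and 68 more negative in differentiating cells. Crabp1 and Aldh1a1 had differences of 0.39 and 1.11 with adjusted p-values of 0.388 and 0.189, and finer clusters (Leiden resolution 2) called Crabp1 too (1.63, edgeR adjusted p = 8.67e-07). For Stra8 the call was lost without testis replicate 1 (1.12), without doublet removal (0.17, edgeR adjusted p = 0.848) and with marker scores (0.69, 0.536). With marker scores 0 of 15628 genes were called for such a difference, so no gene could keep a call. TO and testis differentiating cells came from different clusters, with 415 and 310 TO cells in one that held 15 and 2 testis cells, and 428 and 161 testis cells in another without TO cells. The cluster of undifferentiated cells held all libraries.

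**Figure D1:**
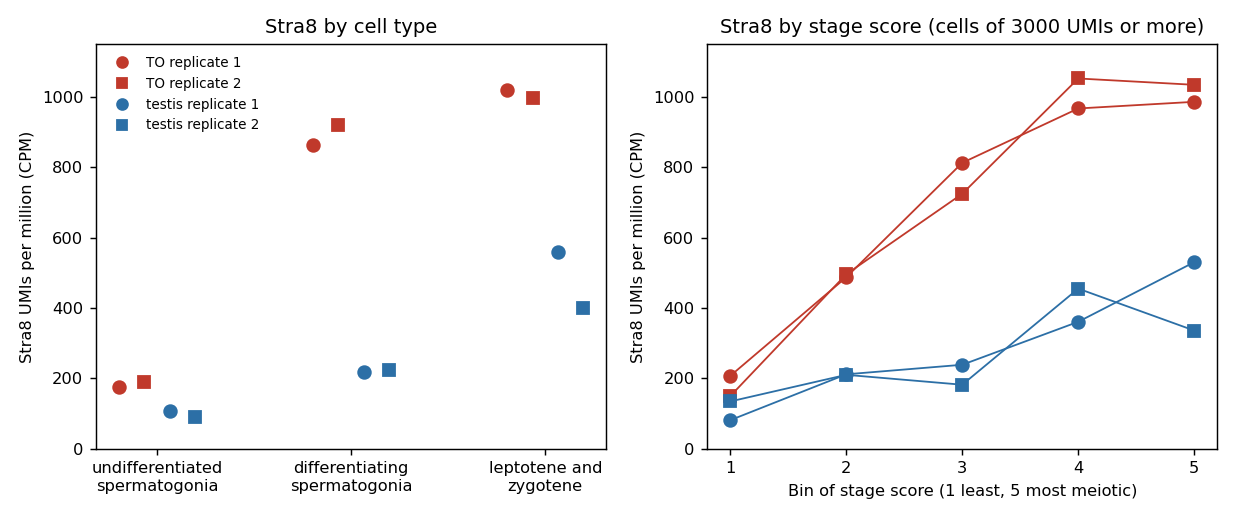
Stra8 in CPM for each of the 4 libraries (points). Left, by cell type, where TO values reach 919 CPM in differentiating spermatogonia-like cells and testis values 224 CPM; right, in 5 bins of a score of developmental stage from early to late, where both TO libraries lie above both testis libraries in every bin.

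A stage score that does not use the cluster borders between stages gave the same order of tissues. The score was the level of leptotene and zygotene markers minus that of undifferentiated spermatogonia markers in cells thinned to 3000 UMIs, and cells were put into 5 bins with at least 36 cells per library. From the earliest to the latest bin, the mean Stra8 CPM of TOs was 1.65, 2.33, 3.65, 2.48 and 2.33 times that of testes. In the middle bin the values were 812 and 724 CPM in TOs and 239 and 182 CPM in testes, and TO libraries lay above testis libraries in all 5 bins. These bins were chosen after the values were seen and carry no test. Of the markers of spermatogonia and of leptotene and zygotene cells, Dmrtb1, a regulator of the choice between mitosis and meiosis, was the only one called, and it is named for that after its values were seen. It was lower in TOs (log2 −2.17 in differentiating cells), at 56.2 and 41.2 CPM against 229 and 207 CPM, and the part of this in the Stra8 result was not tested.

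Detection of Stra8 was also compared at equal depth. Of spermatogonia-like cells thinned to 1500 UMIs, 53.6% (95% Clopper-Pearson CI 49.6–57.7) and 61.0% (55.9–65.9) had a Stra8 UMI in TOs and 17.0% (14.1–20.2) and 22.7% (17.4–28.8) in testes. The TO mean lay 37.5 percentage points above the testis mean (p = 0.33 by an exact permutation test, two-sided, over n = 2 and 2 libraries, which is the smallest p such a design can give). Without thinning the shares were 80.4, 89.1, 31.8 and 40.9%, and only 9 cells, all of TO replicate 1, were too shallow. Sertoli-like cells, which should lack Stra8, had a UMI in 0.391% of cells of TO replicate 1 and in 0 of 585, 316 and 108 cells of the other libraries, which allows shares of up to 0.513, 0.949 and 2.78%. Median depths before thinning were 7567 and 8030 UMIs in TO and 4467 and 5949 UMIs in testis differentiating cells, and 10608, 12203, 6938 and 9896 UMIs in Sertoli-like cells. Intervals and limits cover counting error only.

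Most TO differentiating cells carried Stra8, rather than a few with very much of it. At 3000 UMIs per cell, the median was 2 Stra8 UMIs in both TO libraries and 0 in both testis libraries. Cells with no Stra8 UMI made up 12.6 and 10.0% in TOs and 70.8 and 60.8% in testes. Cells with at least 6 UMIs made up 7.80 and 8.24% in TOs and 0.860 and 0% in testes. Among undifferentiated cells, 69.0 and 68.0% of TO cells and 87.6 and 85.5% of testis cells had none.

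Most Stra8 transcripts lay in differentiating spermatogonia-like and in leptotene and zygotene-like cells, with the larger part in the former in TOs and in the latter in testes. Differentiating spermatogonia-like cells held 59.1 and 50.2% of all Stra8 UMIs of the TO libraries and 39.2 and 36.8% in testes. Leptotene and zygotene-like cells held 27.6 and 41.7% against 46.2 and 53.5%, and undifferentiated cells 6.79, 3.32, 8.98 and 6.27%. The somatic types tested lay between 0 and 7.05 CPM. Past zygotene, Stra8 stood at 66.5 and 448 CPM in the few TO pachytene-like cells (12 and 28 UMIs) and at 2.63 and 0.472 CPM in testes (6 and 1 UMIs), a call at log2 6.13 (SE 0.98, adjusted p = 0.00187). In round spermatid-like cells it stood at 226 and 274 CPM (21 and 47 UMIs) against 1.13 and 0.275 CPM (21 and 3 UMIs), a call at log2 7.55 (SE 0.61, adjusted p = 6.31e-14). Both TO groups had the lower levels of their own stage's markers given above, and the part of that in their Stra8 was not tested.

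Crabp1, which encodes a protein that binds RA in the cytoplasm, was not called between tissues in spermatogonia-like cells and was higher in TOs in 2 later types. In differentiating spermatogonia-like cells Crabp1 stood at 313 and 222 CPM in TOs and at 248 and 275 CPM in testes, and the groups overlapped (log2 0.02, SE 0.20, adjusted p = 0.956). These cells held 75.0, 71.0, 75.1 and 77.6% of the Crabp1 UMIs of each library. Undifferentiated cells came next at 96.3 and 118 against 122 and 116 CPM. In leptotene and zygotene-like cells, where testis levels had dropped to 20.1 and 21.1 CPM, TO levels were 62.3 and 47.2 CPM, 2.63-fold higher (log2 1.39, SE 0.33, adjusted p = 0.00582). That call was lost in 5 of 16 alternatives, without TO replicate 1 (adjusted p = 0.0468), with DESeq2 (0.0317), with marker scores (0.0159) and with free RNA subtracted by the pooled (0.0109) or the median ratio (0.0127). The call in round spermatid-like cells, next, was lost in 3, without testis replicate 1 (0.0674), without testis replicate 2 (0.0394) and with marker scores (0.0445). Round spermatid-like cells held 75.2 and 46.7 CPM in TOs and 0.751 and 0.458 CPM in testes, from 7 and 8 UMIs in TOs (log2 5.72, SE 0.77, adjusted p = 1.72e-07). Pachytene-like cells held 6 and 4 UMIs in TOs and 4 and 0 in testes.

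Crabp2, the gene of the other cytoplasmic RA-binding protein, gave few counts. It had 29, 28, 29 and 12 UMIs in whole libraries. Leptotene and zygotene-like cells had 10.4, 3.59, 10.1 and 4.95 CPM, and no other type passed 5.54 CPM. TO and testis values overlapped there (log2 −0.24, adjusted p = 0.859).

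Rarg, the RA receptor gene best known from spermatogonia, lay between 0 and 28.1 CPM in all types named here. Differentiating spermatogonia-like cells had 13.6 and 11.8 CPM in TOs and 20.3 and 28.1 CPM in testes, and undifferentiated ones 12.9 and 14.7 against 26.9 and 16.9 CPM. Both TO libraries lay below both testis libraries in each stage, but neither passed the test (log2 −0.90 and −0.89, SE 0.33 and 0.45, adjusted p = 0.0942 and 0.236), nor did both stages together (−0.90, SE 0.30, 0.0564). Stromal-like cells had 18.9 and 21.2 against 11.7 and 15.0 CPM (log2 0.64, SE 0.33, adjusted p = 0.179). Leptotene and zygotene-like cells had 4.61 to 9.91 CPM, macrophage-like cells 3.53 to 11.2, Leydig-like cells 4.41 to 9.24 and peritubular myoid-like cells 4.87 to 17.2. Sertoli-like cells held 14 and 5 Rarg UMIs in TOs and 0 in testes, which allows up to 1.33 and 2.93 CPM there. Testis cells of the cluster with endothelial markers had 22.9 and 23.7 CPM.

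**Figure D2:**
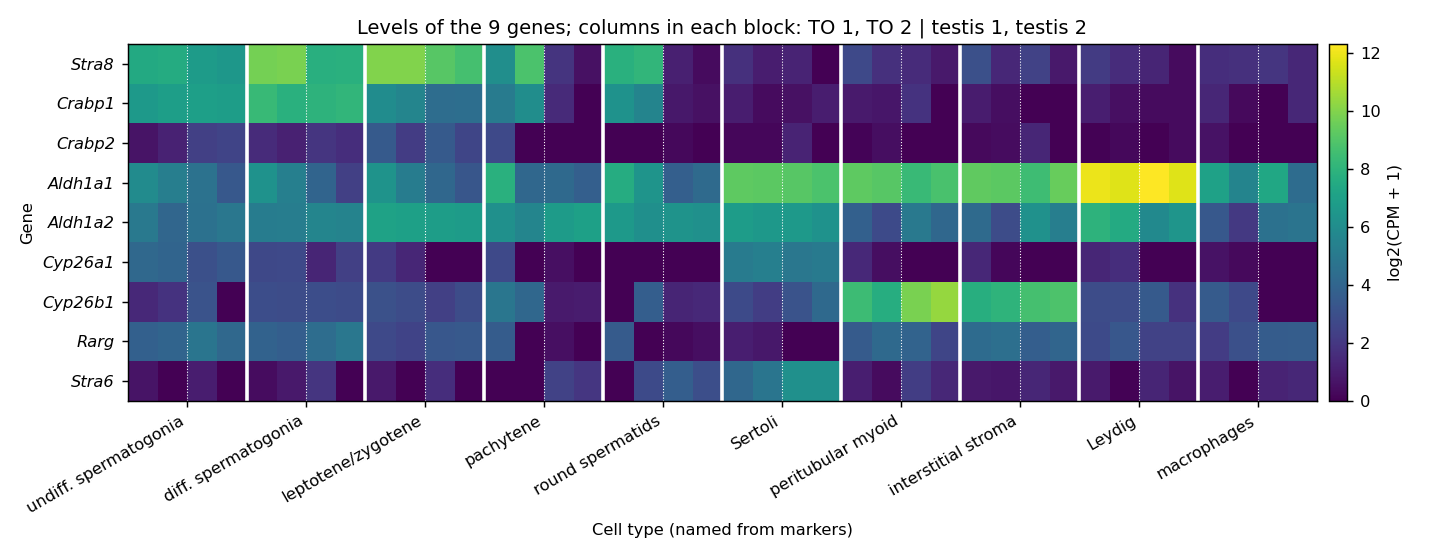
Levels of the 9 genes as log2(CPM + 1) (colour) in the 10 cell types tested (columns) for each of the 4 libraries. Stra8 and Crabp1 are highest in germ cells, Aldh1a1 in Leydig-like cells (3304 to 5058 CPM), Cyp26b1 in peritubular myoid-like and stromal-like cells, and Stra6 and Cyp26a1 in Sertoli-like cells.

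RA synthesis genes lay mainly in Leydig-like cells in TOs. Aldh1a1 (chr19:20492715-20643465, + strand), a retinal dehydrogenase whose locus overlaps 2 genes on the other strand, reached 3923 and 3382 CPM in TO and 5058 and 3304 CPM in testis Leydig-like cells, and the groups overlapped (log2 −0.27, SE 0.37, adjusted p = 0.650). These cells held 74.2 and 71.2% of all Aldh1a1 UMIs in TOs and 85.2 and 81.7% in testes, although they were 17.5 and 18.1% of TO cells and 5.77 and 3.59% of testis cells. Over all cells kept, Aldh1a1 was at 1483 and 1243 CPM in TOs and 474 and 294 CPM in testes. The level within Leydig-like cells was thus not called between tissues, while in the whole cell mix each TO library exceeded each testis library, which holds unequal shares of Leydig-like cells. The summed level of the 6 Leydig markers in these cells was 9317, 3688, 12830 and 17920 CPM.

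Other somatic types held less Aldh1a1. Sertoli-like cells had 604 and 594 CPM in TOs and 549 and 444 CPM in testes (log2 0.40, SE 0.19, adjusted p = 0.124). Stromal-like cells had 634, 597, 362 and 693 CPM, and peritubular myoid-like cells 617, 544, 319 and 432 CPM (adjusted p = 0.594 and 0.0907). Macrophage-like cells varied more between libraries of one tissue than between tissues, at 130, 45.2, 159 and 19.2 CPM. These directions in Sertoli-like, stromal-like and peritubular myoid-like cells turned when free RNA was subtracted (log2 −0.13, −0.47 and −0.37 with the median ratio).

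Germ cells gave lower Aldh1a1 values, which are shown beside the level of Leydig transcripts in the same cells. Aldh1a1 was called higher in TOs in differentiating spermatogonia-like cells (75.4 and 38.9 against 14.8 and 4.02 CPM, log2 2.38, SE 0.46, adjusted p = 0.00419), in leptotene and zygotene-like cells (79.1 and 34.8 against 16.1 and 8.67 CPM, log2 2.11, SE 0.46, adjusted p = 0.00267) and in round spermatid-like cells (193 and 81.6 against 12.4 and 18.3 CPM, log2 2.29, SE 0.51, adjusted p = 0.000477). Undifferentiated cells had 61.0 and 38.0 against 23.9 and 9.63 CPM and were not called (adjusted p = 0.0319), nor were pachytene-like cells at 227, 16.0, 17.5 and 12.3 CPM (0.0319). The summed Leydig markers of differentiating cells were 185, 43.6, 32.8 and 17.1 CPM. The ratio of Aldh1a1 to these markers was 0.407, 0.892, 0.451 and 0.235 there, beside 0.421, 0.917, 0.394 and 0.184 in the Leydig-like cells of the same libraries. It was 0.538, 0.839, 0.571 and 0.269 in leptotene and zygotene-like, 0.438, 1.03, 1.5 and 0.4 in undifferentiated, 0.759, 0.2, 0.556 and 0.26 in pachytene-like and 0.581, 1.17, 0.656 and 0.623 in round spermatid-like cells, so that several libraries lay off the Leydig-like ratio outside differentiating cells. Sertoli-like cells had ratios of 3.63, 8.18, 13.3 and 12.3. When each library's own profile was subtracted at the median ratio of somatic markers, 0 and 4 of 239 and 99 Aldh1a1 UMIs were left in TO and 0 of 32 and 4 in testis differentiating cells, and 0 in leptotene and zygotene-like cells of any library. In round spermatid-like cells the median ratio left 10 of 18 and 11 of 14 UMIs in TOs and 0 of 231 and 200 in testes, and the pooled ratio 0 in all. The same step left 2719, 2335, 469 and 223 of 2733, 2340, 472 and 223 Stra8 UMIs in differentiating cells. Aldh1a1 could not be fitted after this step in differentiating or in leptotene and zygotene-like cells, and in round spermatid-like cells it was still called higher in TOs (adjusted p = 7.25e-09), against testis libraries left at 0. Without subtraction that call was lost without TO replicate 1 (log2 1.74) or TO replicate 2 (2.60) and with marker scores (1.52, edgeR adjusted p = 0.303). It was also lost without doublet removal (3.11, edgeR adjusted p = 0.0162). There 0 of 14549 genes were called in round spermatid-like cells, so no gene could keep a call. The call in leptotene and zygotene-like cells was lost without TO replicate 1 (1.49, 0.0412) and with marker scores (2.21, 0.0116).

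Aldh1a2, the retinal dehydrogenase known from spermatocytes and spermatids, was spread over more types, and the tissues differed in where its UMIs lay. Leydig-like cells had 247 and 182 CPM in TOs and 56.0 and 84.2 CPM in testes, with no overlap between tissues (log2 1.52, SE 0.32). The adjusted p of 0.0109 missed the threshold of 0.01, and 4 alternatives called it. These cells held 65.0 and 70.7% of the Aldh1a2 UMIs of TOs and 5.89 and 12.0% of those of testes. In testes, 43.6 and 32.8% lay in round spermatid-like cells, against 0.129 and 0.247% in TOs, where such cells were rare. Their level was 96.7 and 70.0 CPM in TOs and 79.8 and 71.4 CPM in testes (adjusted p = 0.299).

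The remaining types gave no call for Aldh1a2, although alternatives called it lower in TOs in stromal-like (5 alternatives), peritubular myoid-like (3), macrophage-like (2) and pachytene-like cells (1). Sertoli-like cells had 110, 93.8, 96.4 and 75.1 CPM (log2 0.36, SE 0.19, adjusted p = 0.165) and leptotene and zygotene-like cells 135, 127, 113 and 107 CPM (log2 0.25, SE 0.22, adjusted p = 0.498). Stromal-like cells had 18.3 and 6.18 CPM in TOs and 74.8 and 37.9 CPM in testes (log2 −2.21, SE 0.52, adjusted p = 0.0129). Peritubular myoid-like cells had 12.6 and 5.77 against 30.5 and 16.2 CPM (log2 −1.37, SE 0.46), and macrophage-like cells 9.58 and 3.13 against 22.9 and 25.6 CPM (log2 −1.83, SE 0.58), with adjusted p-values of 0.0395 and 0.0390. Spermatid transcripts differed in the same direction in these types. The summed elongating spermatid markers were 2.6 and 3.3 CPM in TO and 4391 and 6425 CPM in testis stromal-like cells, and 3.2 and 3.2 against 4165 and 6224 CPM in peritubular myoid-like cells; their part in the Aldh1a2 values was not tested. Differentiating spermatogonia-like cells had 35.3, 35.7, 48.0 and 44.2 CPM, undifferentiated ones 30.8, 15.9, 22.9 and 28.9 CPM, and pachytene-like cells 72.0, 48.0, 108 and 128 CPM.

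The RA-degrading enzyme gene Cyp26b1 was 3.98-fold lower in peritubular myoid-like cells of TOs. Cyp26b1 (chr6:84571414-84593908, − strand) stood there at 350 and 205 CPM in TOs and at 903 and 1291 CPM in testes, with both TO libraries below both testis libraries (log2 −1.99, SE 0.34, adjusted p = 0.00116). Stromal-like cells had 208 and 254 CPM against 412 and 464 CPM, the same order of libraries without a call (log2 −0.87, SE 0.26, adjusted p = 0.0395). Together these types held nearly all Cyp26b1 UMIs: 57.5 and 25.2% of TO and 67.5 and 69.8% of testis UMIs lay in peritubular myoid-like cells, and 37.0, 71.7, 25.6 and 25.8% in stromal-like cells.

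Clusters within these types differed. Peritubular myoid-like cells fell mainly into 2 clusters with Cyp26b1 at 300 and 199 against 1159 and 1432 CPM and at 404 and 222 against 1160 and 1804 CPM. A smaller cluster of the same name had at most 5 UMIs in any library. Of the stromal-like clusters, one had 216 and 307 against 213 and 176 CPM, with both TO libraries above both testis libraries, TO replicate 1 only narrowly. Another had 190 and 153 against 716 and 831 CPM, the opposite order. The 6 peritubular markers summed to 11680 and 8786 CPM in TOs and 20010 and 20680 CPM in testes, so the TO cells of this name were also lower in their defining genes, and the part of this in the Cyp26b1 result was not tested. In stromal-like cells of TOs these markers were at 1883 and 662 CPM, against 158 and 155 CPM in testes. The call was lost after subtraction of free RNA (log2 −2.23, edgeR adjusted p = 0.0443 with the median ratio). That ratio left 3492, 1937, 1456 and 1579 of 3769, 2094, 1480 and 1591 Cyp26b1 UMIs. With it, 18 genes were called higher and 50 lower of 12260 in these cells, against 720 and 2993 of 15199 without subtraction. The pooled ratio called 0 genes there, so no gene could keep a call. Clustering without Harmony turned the log2 fold change to 4.88. In that clustering the testis cells given the name (216 and 146) held Rgs5, a pericyte gene, at 975 and 1475 CPM, where the TO cells had 0 UMIs, and Cyp26b1 at 13.8 and 6.32 CPM.

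Outside these types Cyp26b1 stayed low. Sertoli-like cells had 5.85 and 3.71 against 7.99 and 17.6 CPM (log2 −1.16, SE 0.48, adjusted p = 0.0874), Leydig-like cells 2.35 to 10.0 CPM and spermatogonia-like cells 4.25 to 6.94 CPM. Macrophage-like cells gave 21 and 25 UMIs in TOs and 0 in testes, and either subtraction of free RNA left 0 of them.

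Cyp26a1, the other RA hydroxylase, was a Sertoli-like gene in both tissues. Sertoli-like cells had Cyp26a1 at 33.7 and 38.8 CPM in TOs and 28.4 and 33.2 CPM in testes (log2 0.39, SE 0.22, adjusted p = 0.199), and they held 74.8, 76.0, 85.3 and 77.3% of its UMIs. These shares rest on 455, 272, 64 and 34 UMIs in Sertoli-like cells. Undifferentiated spermatogonia-like cells came next, with 16.8 and 14.7 against 6.97 and 9.63 CPM (log2 0.89, SE 0.53, adjusted p = 0.340), and differentiating ones had 5.36 and 5.50 against 1.38 and 4.02 CPM. Leydig-like cells held 65 UMIs in TOs and 0 in testes, at least 4.08-fold higher when the testis group is put at 3 UMIs, and edgeR did not call it (adjusted p = 0.0282). Subtraction of free RNA left 0 and 24 of the 27 and 38 TO UMIs with the median ratio and 0 and 0 with the pooled ratio.

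**Figure D3:**
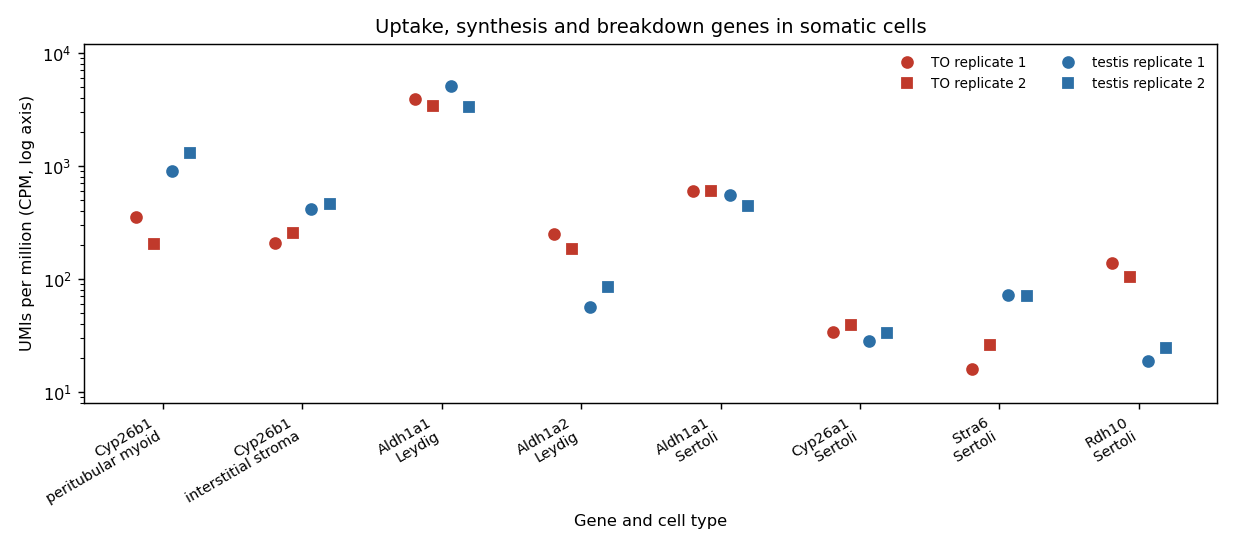
Levels (CPM, log axis) of genes of RA synthesis, breakdown and vitamin A handling in somatic cell types, one point per library. Cyp26b1 in peritubular myoid-like cells and Stra6 in Sertoli-like cells lie lower in TOs, Rdh10 in Sertoli-like cells lies higher, and Aldh1a1 in Leydig-like cells overlaps.

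Stra6, the receptor through which cells take up retinol, was 3.12-fold lower in TO Sertoli-like cells. Stra6 (chr9:58063788-58153996, + strand, overlapped by a gene on each strand) stood at 16.0 and 26.1 CPM in TOs and at 72.4 and 70.2 CPM in testes, and the TO libraries lay below the testis libraries (log2 −1.64, SE 0.28, adjusted p = 0.00264). The larger Sertoli-like cluster had 13.1 and 26.2 against 72.4 and 70.6 CPM. The smaller one, with 225 and 89 TO cells and 0 and 2 testis cells, had 30.6 and 25.8 CPM in TOs. The call was lost without TO replicate 1 (log2 −1.30, adjusted p = 0.0117), without testis replicate 1 (−1.62, 0.0117) and with free RNA subtracted by the pooled ratio (−1.19, 0.0469). Sertoli-like cells held 79.4 and 82.8% of the Stra6 UMIs of TOs but 30.6 and 23.8% of those of testes. The rest lay mostly in spermatids, with 41.0 and 24.1% in round spermatid-like cells (11.7 and 6.69 CPM) and 2.44 and 35.6% in elongating spermatid-like cells (5.61 and 6.44 CPM) of testes. Round spermatid-like cells of TOs held 1 Stra6 UMI. Sertoli markers in Sertoli-like cells summed to 8083 and 8251 CPM in TOs and 5178 and 5364 CPM in testes. Most of each sum was Aard (5359, 5804, 3267 and 3551 CPM), and Sox9 and Cldn11 were called higher in TOs. Fshr stood at 103 and 129 CPM in TOs and 155 and 180 CPM in testes and Amh at 4.82, 1.14, 23.1 and 7.80 CPM, neither called (adjusted p = 0.141 and 0.0305). The part of these markers in the Stra6 result was not tested.

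Over the 10 cell types, 51 pairs of a gene and a type could be tested. Of these, 9 were called higher and 2 lower in TOs, where 3.68 and 13.8% of all 128384 tests of genes in these types were called higher and lower. DESeq2 called 9 and 3. The 9 higher calls were Stra8 in 4 germ cell types, Aldh1a1 in 3 and Crabp1 in 2. The choice of genes started from the higher Stra8 of TO spermatogonia, so the Stra8 calls are not independent of that choice. Free RNA subtraction by the median ratio left 0 and 4 Aldh1a1 UMIs in TO differentiating cells and 0 in leptotene and zygotene-like cells. Among the 8 types with the most UMIs, which leave out pachytene-like and round spermatid-like cells, 5 were higher and 2 lower. Leaving out TO replicate 1 gave 5 higher, leaving out testis replicate 1 gave 1 lower, and subtraction of free RNA gave 5 higher and 1 lower with the median ratio.

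By type, the members called stood as follows against all genes. In differentiating spermatogonia-like cells 2 of 7 tested members were called higher and 0 lower, against 1.06 and 12.0% of all genes. In leptotene and zygotene-like cells 3 of 6 were higher and 0 lower, against 1.04 and 13.9%. Pachytene-like cells had 1 of 3 higher (all genes 2.59 and 9.83%) and round spermatid-like cells 3 of 5 higher (8.69 and 8.91%), with 0 lower in both. Stra8, from which the choice of genes started, was among the higher members in each of these 4 types. At an unadjusted p under 0.05, 1, 0, 1 and 0 members were lower in these 4 types in the order given, and DESeq2 called 0 lower in each. With total UMIs in place of TMM scaling, the median log2 fold change of all genes moved from −0.44 to 0.48 in pachytene-like and from −0.44 to 0.32 in round spermatid-like cells. The calls of all genes moved with it, from 267 higher and 1012 lower to 1340 and 678 in the first and from 1299 and 1332 to 2033 and 623 in the second. In Sertoli-like and macrophage-like cells the same step moved the median from 0.02 to −0.11 and from 0.06 to −0.17.

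In the somatic types members were called lower or not at all. Sertoli-like cells had 1 of 5 lower and 0 higher (all genes 16.5% lower and 8.13% higher), and peritubular myoid-like cells 1 of 5 lower and 0 higher (19.7 and 4.74%). At an unadjusted p under 0.05 these types had 0 and 1 members higher, and DESeq2 called 0 higher in both. The share of members lower was thus near that of all genes in both. No member was called by edgeR in Leydig-like cells (0 of 6, all genes 2.14% higher and 12.4% lower), stromal-like cells (0 of 5, 2.38 and 17.8%), macrophage-like cells (0 of 3, 3.0 and 16.0%) or undifferentiated spermatogonia-like cells (0 of 6, 0.603 and 8.67%). At an unadjusted p under 0.05, these 4 types had 2, 0, 0 and 2 members higher and 0, 2, 1 and 0 lower. DESeq2 called 1 higher in Leydig-like cells, 1 lower in stromal-like cells and 0 in the other 2.

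**Figure D4:**
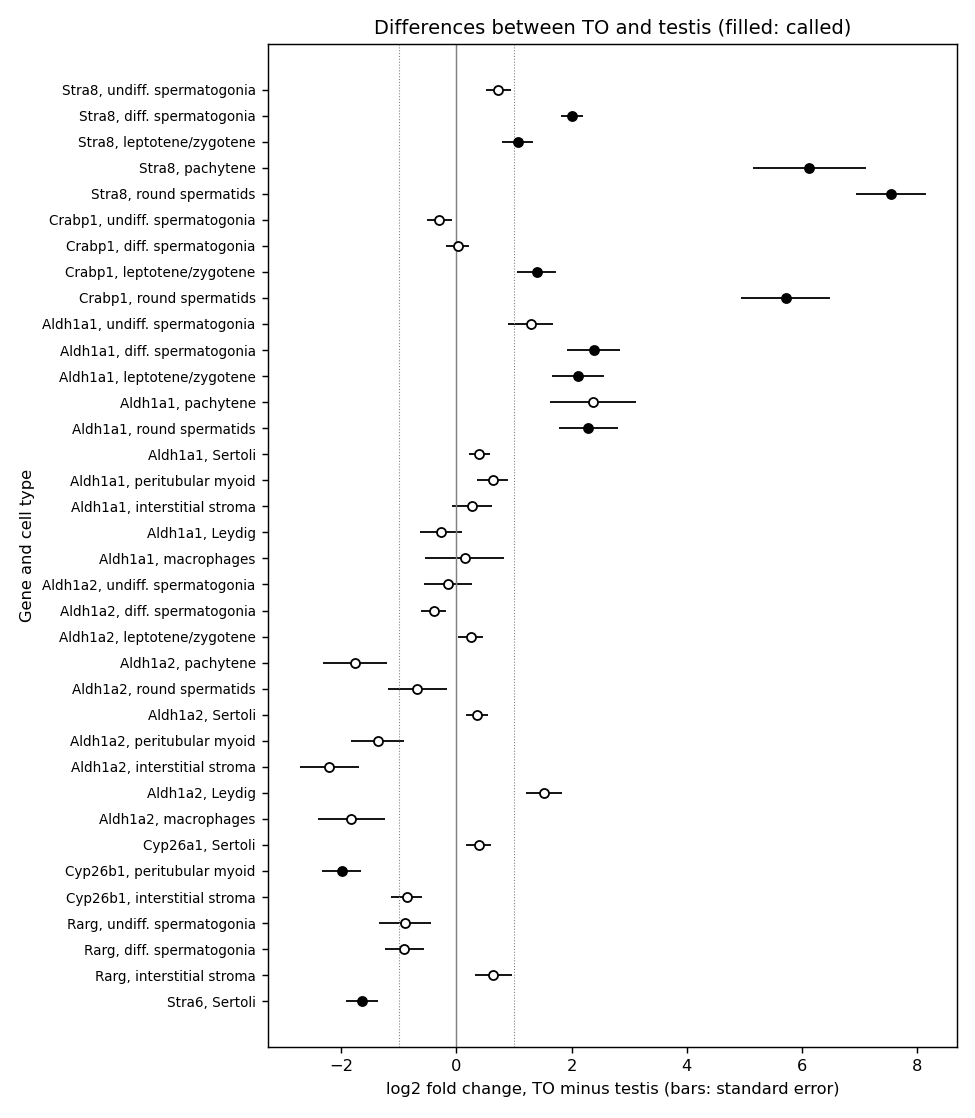
Log2 fold change of TO over testis (points, bars ± SE) for 36 pairs of a gene and a cell type, filled where called. Stra8 and Aldh1a1 in germ cells lie to the right, as does Crabp1 in leptotene and zygotene-like and in round spermatid-like cells. Crabp1 lies near 0 in differentiating (0.02) and to the left in undifferentiated spermatogonia-like cells (−0.30). Cyp26b1 in peritubular myoid-like cells (−1.99) and Stra6 in Sertoli-like cells (−1.64) lie to the left.

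The wider RA pathway was described with a list of 48 genes that includes the 9. In Sertoli-like cells 7 of 27 tested list genes were called higher and 5 lower in TOs, beside 8.13 and 16.5% of all genes. The list had a median log2 fold change of 0.32 there, beside 0.02 for all genes. Of the higher genes, several handle retinol and retinal. Rdh10, whose enzyme turns retinol into retinal, stood at 138 and 103 CPM in TOs and 18.6 and 24.4 CPM in testes (log2 2.66, SE 0.23, adjusted p = 0.000134), and Dhrs3, which turns retinal back into retinol, at 29.0 and 21.1 against 4.88 and 10.7 CPM (log2 1.97). TO libraries lay above testis libraries for both genes.

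The other Sertoli-like calls were mixed in role. Tgm2, a transglutaminase known to respond to RA, was at 92.2 and 112 against 4.00 and 1.95 CPM (log2 5.06), Adh1 at 19.0 and 9.86 against 1.78 and 0 CPM (3.71) and Rdh14 at 99.0 and 110 against 46.2 and 63.4 CPM (1.10). Adh1 was also among the leading genes of a Leydig-like cluster. The summed Leydig markers of Sertoli-like cells were 166, 72.6, 41.3 and 36.1 CPM, and their part in the Adh1 result was not tested. Rarres2 was called with 241 UMIs in TOs and 2 in testes, a ratio of 19.3 (95% counting interval 5.28–160). Lower in TOs, beside Stra6, were Rec8 (0.889 and 0.286 against 18.6 and 19.5 CPM, log2 −4.70), Dazl (−1.20), Rdh11 (−1.74) and Rarres1 (66.8 and 50.6 against 106 and 170 CPM, −1.07). Rec8 and Dazl are germ cell genes. The summed elongating spermatid markers of these cells were 2.4 and 2.9 CPM in TOs and 1768 and 2637 CPM in testes, and the part of that in these lower calls was not tested.

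In peritubular myoid-like cells 2 of 31 list genes were higher and 4 lower, beside 4.74 and 19.7% of all genes. Adh1 (52.7 and 28.8 against 3.66 and 1.62 CPM, log2 3.87, SE 0.50) and Nrip1 (261 and 277 against 90.3 and 106 CPM, 1.45) were higher. The summed Leydig markers of these cells were 364 and 61.4 CPM in TOs and 38.4 and 56.8 CPM in testes. Their part in the Adh1 result was not tested. Lower were Cyp26b1, Rdh11 (−1.74), Rec8 (−4.51) and Rarb (log2 −4.44), which had 1 and 3 UMIs in TOs and 6 and 7 in testes. Testis round spermatid-like cells had Rarb at 5.47 and 8.80 CPM, above the 3.66 and 5.68 CPM of testis peritubular myoid-like cells. Stromal-like cells had 2 of 30 lower, Rdh11 (−2.12) and Rec8 (−5.39), and 0 higher, beside 17.8 and 2.38% of all genes. At an unadjusted p under 0.05, 6 list genes were higher there, and DESeq2 called 2 higher.

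Leydig-like cells had 1 of 33 list genes higher and 0 lower, beside 2.14 and 12.4% of all genes. The higher gene was Nrip1, a nuclear receptor corepressor, at 331 and 333 against 142 and 90.0 CPM (log2 1.45). At an unadjusted p under 0.05, 5 list genes were lower there, and DESeq2 called 1 lower. Macrophage-like cells had 3 of 20 higher and 1 lower, beside 3.0 and 16.0% of all genes. Fabp5, a fatty acid-binding protein that also binds RA, was at 1056 and 1140 against 25.6 and 38.4 CPM (log2 5.32, SE 0.35, adjusted p = 5.81e-06). Dhrs3 (217 and 198 against 105 and 62.5 CPM, 1.52) was higher too, and Rdh11 was lower (−1.82).

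Among germ cells, Sohlh2, a transcription factor of differentiating spermatogonia, was higher in TOs with Stra8. In differentiating cells it stood at 65.0 and 80.5 CPM against 29.5 and 26.1 CPM (log2 1.35, SE 0.23, adjusted p = 0.00186). The differentiating cells had 4 of 26 list genes higher (Stra8, Aldh1a1, Sohlh2 and Rarres2, the last with 38 UMIs against 1) and 1 lower, Rdh11 (−1.55). Of all genes, 1.06 and 12.0% were called higher and lower there. Over both spermatogonial stages 4 of 27 were higher, with Sohlh2 at log2 1.15, and 1 lower, beside 0.867 and 12.2% of all genes. Leptotene and zygotene-like cells had 4 of 22 higher, the 3 members among them, and Rdh11 lower (−3.29), beside 1.04 and 13.9% of all genes. Undifferentiated cells had 1 of 21 lower, Rdh11 (−2.09), and 0 higher, beside 8.67 and 0.603% of all genes. At an unadjusted p under 0.05, 3 list genes were higher there, and DESeq2 called 0 higher. Rdh11, which encodes a retinal reductase, was thus called lower in TOs by edgeR in 7 of the 10 types, where 8.67 to 19.7% of all genes were. DESeq2 called 0 list genes lower in differentiating, undifferentiated and macrophage-like cells. The part of the spermatid transcripts of testis somatic types in the Rdh11 values was not tested.

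Meiosin and Rec8, which RA is known to switch on in germ cells at meiotic entry, gave no call where Stra8 did. Meiosin, matched by its older symbol, stood at 126 and 122 CPM in TO and 132 and 100 CPM in testis leptotene and zygotene-like cells (log2 0.09, SE 0.23, adjusted p = 0.852). Rec8 in differentiating cells was at 48.9 and 41.2 against 38.8 and 25.1 CPM. The receptor gene Rara was at 25.9 and 25.5 against 29.1 and 35.2 CPM there, and at 76.3, 75.4, 70.6 and 73.2 CPM in Sertoli-like cells, so its libraries lay within a narrow range. Aldh1a3, a further retinal dehydrogenase, was found mainly in stromal-like cells at 26.6, 54.4, 37.4 and 54.5 CPM, and Lrat, which stores retinol as an ester, was at 9.26, 4.43, 6.22 and 5.85 CPM in Sertoli-like cells.

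Late germ cell groups of TOs again stood apart. Round spermatid-like cells had 8 of 26 list genes higher and 0 lower, beside 8.69 and 8.91% of all genes. Among the higher ones were the 3 members, Adh5 (log2 4.18), Dazl (3.03) and Fabp5 (3.60). The list median was 0.40, beside −0.44 for all genes. At an unadjusted p under 0.05, 3 were lower, and DESeq2 called 0 lower. Sertoli markers summed to 1053 and 379 CPM in these TO cells and to 27.3 and 34.0 CPM in testes, and their part was not tested. Pachytene-like cells had 2 of 15 higher, Stra8 and Dazl (2.85), and 0 lower, beside 2.59 and 9.83% of all genes.

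Across the 50 sums of a library and a cluster-defined type, the genes most like a member were ranked by Pearson's r of log2(CPM + 1) over 16527 genes of at least 20 CPM in any sum. For Stra8 they were Gm15262 (0.970), Gm15128 (0.962), Xlr4a (0.962), Magea8 (0.961) and Tex13b (0.95). For Crabp1 they were Luzp4, Fthl17c, Nlrp4c, Cnksr2 and Gm15128, at 0.938 to 0.958, the last being shared with Stra8. Among the genes most like Aldh1a1 were Smarca1, Acsbg1, Akr1cl and Gstm1 (0.923 to 0.951), and Cyp26b1 most like Col6a3, Tcf23, Frmd7, Slc38a5 and Sct (0.871 to 0.885). Sums of one library share that library and its depth, so these values describe patterns over types only.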

How the data were processed

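Single-cell RNA-seq (10x Genomics 3' v3.1) was run on 2 TO and 2 testis libraries. Per the labels' processing notes and the file headers, the authors ran Cell Ranger 7.1.0 on mm10 and deposited raw UMI counts per gene and called barcode, without further filters or normalization. Libraries held 11826 to 14643 barcodes and 74988295 to 119966959 UMIs, and groups were taken from sample titles. The members and lists were chosen with earlier results of these data known.

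Barcodes were kept that had 1000 to 5000 genes detected, no more than 20000 UMIs and a mitochondrial share of 10% or less, and doublets were removed with Scrublet (scanpy 1.11.5; 9.46 to 11.7% of barcodes, set at 0.8% per 1000 barcodes). After scaling to 10000 UMIs, 2000 variable genes without the RA pathway genes, 30 components (20 for germ cells), Harmony (own implementation) and Leiden clustering (leidenalg 0.10.2, resolution 1) followed. A cluster was named from fixed marker lists, and a type was tested where at least 3 markers were found in at least 10% of its cells in every library. That last condition, library by library, was added after the data were seen.

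Counts were summed per library and type and tested with edgeR 4.0.16 (quasi-likelihood, TMM, filterByExpr, Benjamini-Hochberg over all genes of a type, R 4.3.3). DESeq2 1.42.0 was an alternative. Genes were called at an adjusted p under 0.01 with a log2 fold change beyond 1 in either direction, the sizes used in the study, whose own test over cells was not used because cells are not replicates. The SE was the fold change over the root of F. Differences in the wording "higher" and "lower" are relative to TMM scaling. On counts simulated for spermatogonia-like cells (13640 genes, 200 changed by a log2 of 2), edgeR recovered 80% with 2 false calls. The test of the difference between stages recovered 23% at the same size of change (12030 genes).

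Named were all 9 members, and of the 48-gene list those called plus Rara, Rarb, Aldh1a3, Dhrs3, Rdh10, Lrat, Rec8, Meiosin and Sohlh2; the 5 most similar genes were ranked for 4 members. Some genes that this rule names are not reported here. Positions are from GENCODE vM21 (GRCm38), which held 32158 of 32285 gene IDs, and promoter sequences from RefSeq (GRCm38.p6). Free RNA was subtracted with each library's summed profile scaled to markers of the other lineage by the pooled or the median ratio. Limits for counts of 0 were set at 3 UMIs.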

Additional observations from a re-analysis of the deposited data

Results flagged for a closer look

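The TO to testis difference of Stra8 was larger in differentiating than in undifferentiated spermatogonia-like cells by 1.30 on the log2 scale, by a test of that difference. TO libraries lay on opposite sides of testis libraries in different cell types for Aldh1a2: above in Leydig-like cells (log2 1.52) and in leptotene and zygotene-like cells (0.25), below in differentiating spermatogonia-like (−0.40), stromal-like (−2.21), macrophage-like (−1.83), pachytene-like (−1.77) and peritubular myoid-like cells (−1.37). None of these 7 values was called, although some alternatives called those in Leydig-like (4 alternatives), stromal-like (5), peritubular myoid-like (3), macrophage-like (2) and pachytene-like cells (1). Rarg likewise lay above in stromal-like (0.64) and Leydig-like cells (0.67) and below in differentiating (−0.90) and undifferentiated spermatogonia-like (−0.89), leptotene and zygotene-like (−0.89) and macrophage-like cells (−0.77), again without a call. The differences between types were not tested for Aldh1a2 and Rarg.

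TO cells of the cluster with endothelial markers, which entered no comparison, held Aldh1a1 at 1185 and 1043 CPM, where testis cells of that cluster held 22.9 and 3.38 CPM. These 86 and 105 TO cells had Pax8, a rete testis marker of the fixed lists, at 326 and 400 CPM, while the other 3 markers of that list, Krt19 (1 and 4 UMIs), Krt7 (1 and 1) and Cdh16 (0 and 2), were at or near 0. Of the endothelial markers, Pecam1 had 0 UMIs and Kdr was found in 40.7 and 33.3% of these cells. No name is given to them. Groups of 2 libraries are too small for a search for single outlying libraries.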

How the results depend on the processing

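Stra8 in spermatogonia-like cells kept its direction and call in 14 of 15 alternatives (log2 1.00 to 2.01; 1.71 to 2.01 with 1 library left out), the exception being cells typed by marker score (1.00, adjusted p = 0.0296). Clusters shared by all libraries are not among these 15. There the spermatogonia-like cells were the undifferentiated ones alone, and Stra8 was not called (log2 0.73, edgeR adjusted p = 0.0287). The Stra8 difference between stages was no longer called without doublet removal (0.17) and with 1 library left out (1.12 to 1.40, lost without testis replicate 1). It was also not called with marker scores (0.69), where 0 of 15628 genes were called. The TO mean of the thinned share of cells with Stra8 lay 11.8 to 48.4 percentage points above the testis mean (33.8 to 41.1 with 1 library left out). The count of members called higher, 9, was 5 with marker scores, 3 and 5 with free RNA subtracted by the pooled and the median ratio, 3 in clusters shared by all libraries, 5 in the 8 largest types and 5 to 9 with 1 library left out. The count called lower, 2, was 5 with every gene with a UMI, 5 with the replicate block, 1 without Harmony, 1 with either subtraction and 1 to 3 with 1 library left out. The median ratio, the shared clusters, the 8 types and the stage bins were chosen after seeing the data. These counts cover unequal sets of types. With the pooled ratio, 0 of all genes were called in Leydig-like, stromal-like, macrophage-like, pachytene-like and peritubular myoid-like cells. The median ratio called 0 in Leydig-like and stromal-like cells. The shared clusters left differentiating spermatogonia-like, pachytene-like and round spermatid-like cells untested. Clustering without Harmony left stromal-like, macrophage-like and round spermatid-like cells untested. The causes of these shifts were not tested.

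Over 36 single pairs of a gene and a type, 444 of 533 alternative values kept direction and side of the threshold, 31 lost a call, 29 gained one and 29 changed sign. Sign changes came with Leiden resolution 2 (Stra8 undifferentiated −0.84, Crabp1 differentiating −0.022), marker scores (Crabp1 differentiating −0.32, Aldh1a2 undifferentiated 1.27 and differentiating 1.01, Rarg undifferentiated 1.02), the median ratio (Aldh1a1 Sertoli −0.13, stromal −0.47, peritubular −0.37) and the pooled ratio (Aldh1a1 peritubular −13.1, Leydig 0.21, Sertoli −13.7, stromal −2.40), which subtracted a share of 0.415 to 0.573 of the library profile from TO Leydig-like and Sertoli-like cells. They also came without Harmony (Aldh1a2 pachytene 0.13, Cyp26b1 peritubular 4.88), without doublet removal (Crabp1 undifferentiated 0.33, Aldh1a2 round 0.030), without upper limits (Aldh1a2 undifferentiated 0.047, round 0.32) and without TMM (Aldh1a2 round 0.11, Aldh1a1 macrophages −0.095). With 1 library left out, Aldh1a1 ranged over −0.51 to 0.098 in Leydig-like cells (positive without testis replicate 1), −0.036 to 0.81 in stromal-like cells (negative without testis replicate 1), −0.75 to 2.32 in macrophage-like cells (negative without TO replicate 1 or testis replicate 2) and −0.79 to 3.23 in pachytene-like cells (negative without TO replicate 1). Aldh1a2 in undifferentiated cells ranged over −0.73 to 0.19 (positive without TO replicate 2) and Crabp1 in differentiating cells over −0.23 to 0.23 (negative without TO replicate 1 or testis replicate 1).

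Same-numbered libraries correlated at −0.02 to 0.16 in their deviations. With 2 libraries per group this cannot tell whether they share more than a number. With the replicate block, Stra8 in spermatogonia-like cells was at 1.83, and 10 members were higher and 5 lower. No block could be fitted for the difference between stages, where the library is already a term. Free RNA subtraction left too few Aldh1a1 UMIs in several germ cell types for a fit.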
